A study of Mus musculus with 32 samples.

Results

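Among 32 lymphomas of Eµ-myc mice, 4 tumours (D6, D16, D20 and D32) carried higher transcript levels over the whole of chromosome 12, and these 4 are compared here with the other 28. They were chosen from the measured values. Each chromosome 12 gene was set against its own median over the 32 tumours, and a tumour was taken where the median of these deviations, called its chromosome 12 level, was over 0.15 on the log2 scale. The values of chromosome 12 genes that follow are therefore a description of the choice and carry no test. Only genes and levels of other chromosomes were tested.

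Both groups have the same label, an Eµ-myc genotype with lymphoma as the tissue, and no untreated or normal B cell group was analysed here. The Eµ-myc transgene places Myc, an oncogene, under an enhancer of the heavy chain locus that is active in the B lineage, and the mice develop B cell tumours. Total RNA of each tumour was hybridised to 1 Affymetrix Mouse430_2 array, and levels below are on the log2 scale, for the probe set with the highest mean of each gene. RNA was taken from solid tissue or from loose cells, with no label to tell them apart, and the labels do not name the mouse of a tumour. P-values would be too small if some tumours shared a mouse, and with 1 array per tumour the spread between tumours includes technical error.

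A cell with an extra copy of a chromosome makes more transcript from many of its genes, while other genes of that chromosome are held near their usual level or follow signals that outweigh the copy. Eµ-myc lymphomas are known to gain whole chromosomes as they develop. Mouse chromosome 12 holds the immunoglobulin heavy chain locus near one end, the Myc relative Mycn near the other, and Max, the obligate partner with which Myc binds DNA. DNA copy number was not analysed here, so "gain" below means a gain in transcript level.

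The chromosome 12 level was 0.25 in D6, 0.27 in D16, 0.34 in D20 and 0.35 in D32, with a mean of 0.30 ± 0.05 (SD, n = 4). The other 28 tumours lay between -0.16 and 0.01, with a median of -0.02. Just outside the threshold stood D11 at 0.01, and just inside stood D6, so no tumour lay between 0.01 and 0.25. D24 had the lowest level, and the next lowest was -0.06. Of the 404 chromosome 12 genes with a usable probe set, D6 had 72.8% above their median, D16 82.4%, D20 86.9% and D32 84.4%, against 35.6% to 54.2% in the others. With dim probe sets included the levels were lower, 0.12 in D6, 0.15 in D16, 0.16 in D20 and 0.21 in D32, against at most 0.04 in the others.

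**Figure D1:**
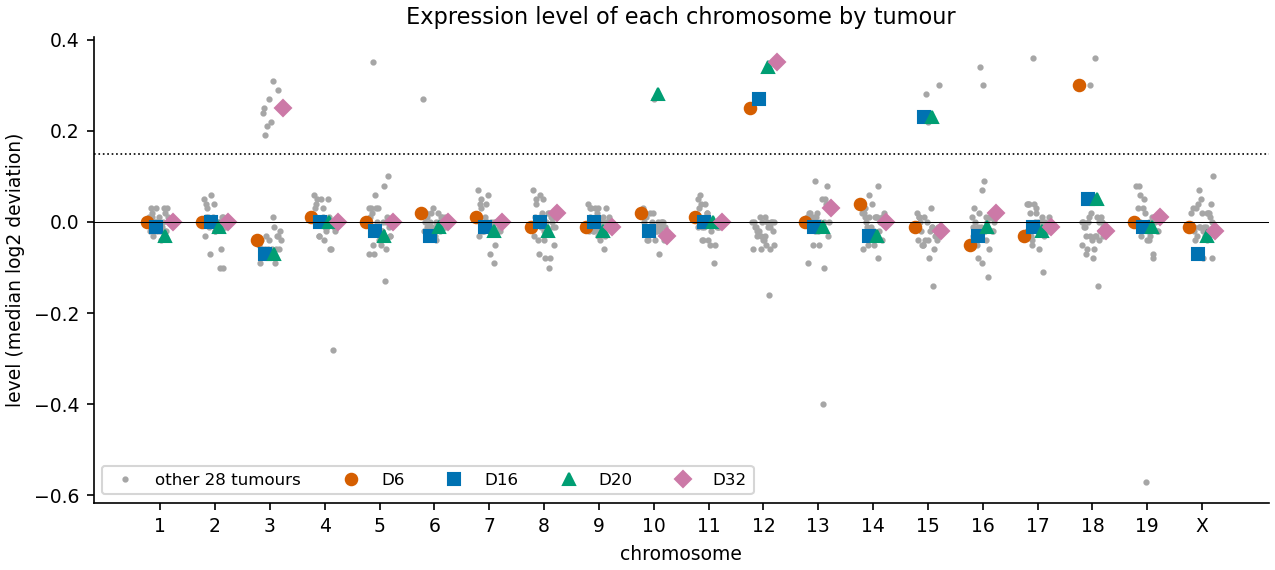
Expression level of each chromosome, as the median log2 deviation of its genes from their medians over 32 tumours, for D6, D16, D20 and D32 (coloured symbols) and for the other 28 tumours (grey dots). The dotted line marks 0.15, above which only the 4 tumours lie on chromosome 12.

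The 3' minus 5' difference of control probe sets, a measure of RNA integrity, was 0.30 to 0.52 in the 4 and 0.26 to 0.96 in the others. The array medians of all tumours lay between 5.72 and 5.80. The processing evens out the distributions of the arrays, so these medians do not measure array quality. B lineage markers were present in each of the 4, with Cd79a, a chain of the B cell receptor, at 10.68 to 11.31. Transcripts of salivary gland, among them Bpifa2 at 14.08 in D16 and 14.03 in D20, were high in 2 of the 4 and in 9 of the 28, and Bpifa2 stood at no more than 4.04 in D6 and D32. D16 and D20 were also the most alike of all 496 pairs of tumours (Pearson's r = 0.78 across the 10780 genes outside chromosome 12, which are not independent replicates), whereas the other pairs among the 4 had r from -0.25 to 0.11. Xist, the transcript of the inactive X chromosome, was 6.92 in D16 and 12.93 in D20, and Eif2s3y, a gene of the Y chromosome, was 9.15 and 3.65, as in a male and a female mouse. D16 and D20 are therefore named beside each result that rests on them.

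The gain covered the chromosome from end to end. The 404 genes were put into 10 runs of 40 or 41 genes in their order along the chromosome, and each run was above 0 in each of the 4 tumours. The runs lay between 0.12 and 0.33 in D6, between 0.16 and 0.30 in D16, between 0.26 and 0.46 in D20 and between 0.29 and 0.42 in D32. D6 had the one value at or under 0.15, in the run from Dicer1 to Mark3. Over the 28 other tumours the runs ranged from -0.55 to 0.16, and D24 alone gave the values under -0.18. In shorter runs of about 20 genes the lowest value among the 4 was 0.02, in D6.

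**Figure D2:**
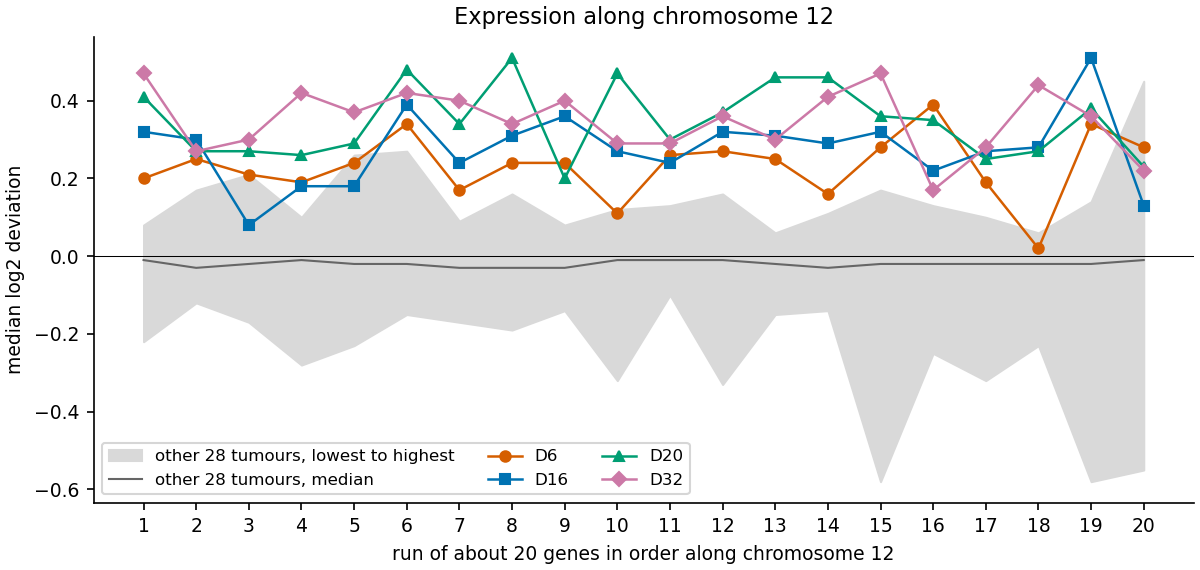
Median log2 deviation of 20 successive runs of about 20 genes along chromosome 12, for D6, D16, D20 and D32 (coloured lines), with the median (grey line) and the lowest to highest value (grey band) of the other 28 tumours. The 4 lines stay above 0 from the first to the last run, and the deepest dips of the band come from D24.

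A gene was said to follow the gain where the mean of the 4 exceeded the mean of the 28 by over 0.15 and each of the 4 was above the median of the 28, and to escape it where the difference was 0 or less. By this rule 216 of the 404 genes followed (53.5%, against 6.22% of the 10780 genes placed on other chromosomes), 50 escaped (12.4%, against 49.5%) and 138 lay between. The median difference was 0.33, a 1.26-fold higher level, with quartiles of 0.11 and 0.49 (1.08-fold and 1.41-fold). One extra copy beside a normal pair would give 0.58 on this scale if transcript tracked DNA, which lies above the upper quartile of 0.49. The 4 tumours stood above all 28 others for 37 chromosome 12 genes and for 0 genes elsewhere.

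Following and escaping genes differed in the CG content of their promoters, and 3 examples of the 250 bases before the start site show the contrast (RefSeq, build GRCm38.p6, 5′ to 3′). Capitals mark each CG dinucleotide, which reads CG on both strands. Ddx1 and Psmc1 follow the gain, and Gpx2 escapes it:
Ddx1, chr12:13249175-13249424, minus strand: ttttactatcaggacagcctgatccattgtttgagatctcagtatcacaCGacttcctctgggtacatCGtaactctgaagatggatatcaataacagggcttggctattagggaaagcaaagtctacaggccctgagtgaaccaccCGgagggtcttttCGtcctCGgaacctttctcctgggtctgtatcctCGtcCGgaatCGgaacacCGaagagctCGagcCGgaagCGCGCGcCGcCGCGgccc
Psmc1, chr12:100109952-100110201, plus strand: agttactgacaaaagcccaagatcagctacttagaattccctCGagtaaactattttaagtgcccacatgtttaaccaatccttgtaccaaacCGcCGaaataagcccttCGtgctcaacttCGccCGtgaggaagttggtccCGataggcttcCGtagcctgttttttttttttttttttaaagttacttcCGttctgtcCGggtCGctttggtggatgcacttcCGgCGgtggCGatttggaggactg
Gpx2, chr12:76795555-76795804, minus strand: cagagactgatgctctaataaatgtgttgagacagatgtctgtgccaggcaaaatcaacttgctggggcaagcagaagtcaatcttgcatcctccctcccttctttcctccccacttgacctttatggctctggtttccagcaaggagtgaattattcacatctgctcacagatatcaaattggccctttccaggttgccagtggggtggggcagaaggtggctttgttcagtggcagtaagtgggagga

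Ddx1 held 17 such dinucleotides, Psmc1 held 14 and Gpx2 held 0. The median was 19 over the 195 following genes with a promoter sequence, 16.5 over 118 genes between and 9 over 39 escaping genes, with 6 over all 27025 promoters and 16 over the genes measured here. These 3 examples were chosen for display, and the counts describe the sequences only. Promoters rich in CG are common in housekeeping genes, and the following genes were also the more abundant ones, with a median level of 8.94 against 6.98 for the escaping genes.

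Level and spread also differed between the classes. Of the 101 chromosome 12 genes with the lowest mean level, 22.8% followed and 25.7% escaped. Of the 101 with the highest, 80.2% followed and 1.98% escaped, that is 2 genes. The median SD over the 28 other tumours was 0.25 for following genes, 0.31 for genes between and 0.61 for escaping genes. A gene of wide spread more easily misses the rule for following or falls at 0 or below. The contrast in SD is thus partly built into the classes, and how far was not tested. The 326 probe sets of 218 chromosome 12 genes that were too dim to be used had a median difference of 0.04. Further probe sets of the same genes, which the rule for following did not use, gave like values. They lie on the same arrays of tumours chosen by chromosome 12 level, so they are no independent support. They covered 113 following genes, 49 genes between and 13 of the 50 escaping genes. Of 215 further probe sets of following genes 210 were higher in the 4, against 77 of 84 for genes between and 5 of 18 for escaping genes. The median differences were 0.37, 0.19 and -0.10.

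**Figure D3:**
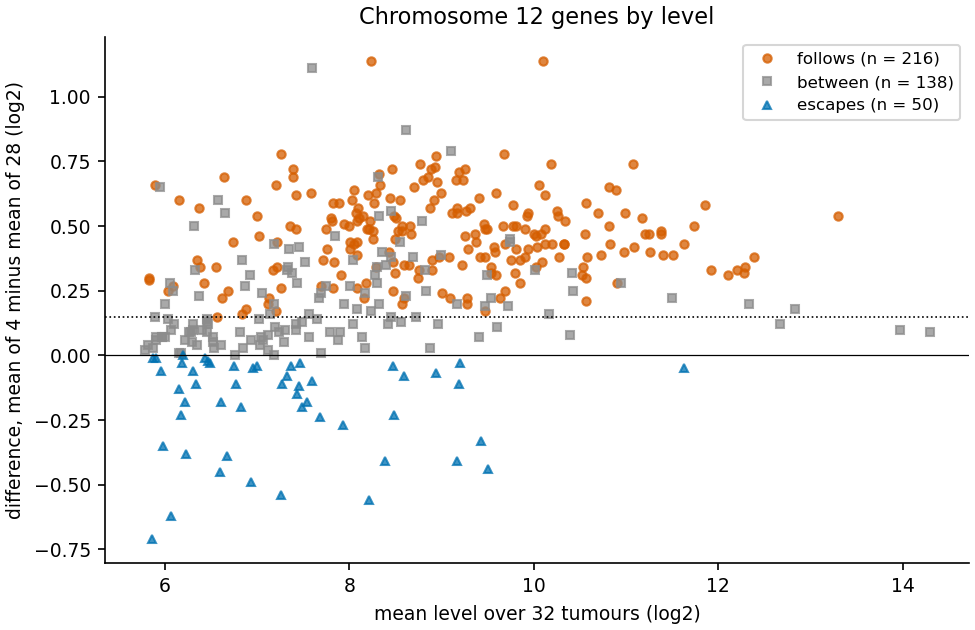
Difference between the mean of the 4 tumours and the mean of the other 28 (log2) against the mean level over 32 tumours (log2) for 404 chromosome 12 genes, by class. Escaping genes (blue triangles, n = 50) lie mostly at low level, and following genes (orange circles, n = 216) make up most of the genes at high level.

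Some genes stood far out for their spread, given as the ratio of the difference to the SD of the others. Ddx1, an RNA helicase encoded beside Mycn, was 11.33 in D6, 11.47 in D16, 11.48 in D20 and 11.54 in D32, while the others ran from 10.54 to 11.05 with a median of 10.80. All 4 tumours lay above all others, and the difference of 0.64 was 4.94 times the SD of the others, the highest ratio among following genes. Psmc1, an ATPase of the proteasome base, was 10.59, 10.66, 10.67 and 10.62 in D6, D16, D20 and D32, against 9.28 to 10.20 in the others. Its 4 values spanned a narrow band, and its difference was 0.66, with a ratio of 3.46. Between Ddx1 and Psmc1 by this ratio stood Eapp, Ptrhd1, Dlst (an enzyme of the citric acid cycle) and Sf3b6 (a splicing factor subunit), from 3.96 down to 3.53.

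By the size of the difference the 12 leading genes were Gphn and Tspan13 (both 1.14), Xrcc3 and Irf2bpl (both 0.78), Entpd5 (0.77), Siva1, Ubxn2a and Bzw2 (each 0.74), Dicer1 (0.73), and Plekhg3, Rab10os and Ttc7b (each 0.72). Gphn, which encodes the scaffold protein gephyrin, was 8.35 in D6, 9.53 in D16, 9.58 in D20 and 9.48 in D32, against a median of 8.31 and a range of 5.01 to 9.02. D6 was close to that median, and D16, D20 and D32 lay above every other tumour. Tspan13, a tetraspanin of the cell surface, was 11.05, 11.22, 11.59 and 10.54 in D6, D16, D20 and D32 and reached 11.58 among the others, so the groups overlapped. Bzw2, a regulator of translation start, was 11.78, 11.58, 11.76 and 11.76 in the same order, and its highest value elsewhere was 11.47. Siva1, a mediator of apoptosis, was 10.87, 10.72, 11.03 and 10.75 against at most 10.71. Pqlc3, Zfyve21 and Otub2 had differences of 1.11, 0.87 and 0.79 but did not meet the rule, since 1 of the 4 was not above the median of the others. D16 and D20 carried the highest values of the 4 for each of these 3 genes.

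Genes of growth and Myc biology on chromosome 12 mostly followed: 9 of 11 followed and 0 escaped, with a median difference of 0.43. Over all chromosome 12 genes 53.5% followed and 12.4% escaped, with a median of 0.33. Of the 101 with the highest level 80.2% followed, with a median of 0.41. The same background holds for each chromosome 12 list below, and the part of level in the list counts was not tested. Max was 9.71 in D6, 9.81 in D16, 10.12 in D20 and 10.06 in D32, against 9.07 to 9.84 with a median of 9.52, so D20 and D32 lay above all others. Odc1, the first enzyme of polyamine synthesis and a known Myc target, was 11.93, 12.21, 12.30 and 12.31 in the same order, against 11.02 to 12.01. Only D6 fell within the range of the others for Odc1. Rrm2, a subunit of ribonucleotide reductase, had a difference of 0.58, and the translation factors Eif5 and Eif2b2 had 0.43 and 0.55. Mycn did not follow: its values of 7.12, 6.87, 7.11 and 7.17 lay within the range of the others, 6.80 to 7.28, with a difference of 0.04. Its signal was low and nearly flat, with an SD of 0.14 over the others. It was among the 101 chromosome 12 genes of lowest level, of which 22.8% followed, with a median difference of 0.09. Whether such a probe set would show a gain was not tested. Yy1, a zinc finger transcription factor, also lay between, at 0.22.

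Cell cycle and DNA repair genes gave 14 following and 0 escaping of 16, with a median of 0.53, the highest of the chromosome 12 lists. The shares over all chromosome 12 genes were 53.5% and 12.4%. Xrcc3, which acts in repair by homologous recombination, was 7.61 in D6, 8.30 in D16, 8.24 in D20 and 7.63 in D32, against at most 7.81 elsewhere. D16 and D20 were thus above all others, and D6 and D32 were not. Pole2, a subunit of DNA polymerase epsilon, differed by 0.71, Fancm, a helicase of the Fanconi pathway, by 0.63, and the kinase gene Vrk1 by 0.58. Smc6, part of a chromosome maintenance complex, differed by 0.46. Mlh3 and Rad51b, at 0.27 and 0.33, lay between.

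Among RNA processing and translation genes 13 of 14 followed and 0 escaped (against 53.5% and 12.4% over all chromosome 12 genes), with a median of 0.43. Ddx24, a helicase, differed by 0.63, the poly(A) polymerase gene Papola by 0.51, Sf3b6 by 0.48 and the cleavage factor gene Cpsf3 by 0.42. Cpsf2, at 0.44, was the one that lay between. Of 14 proteostasis genes 9 followed and 1 escaped. The proteasome subunits Psma3 and Psma6 had differences of 0.34 and 0.38, and each of the 4 tumours had Psma3 at 12.54 or more against at most 12.50 elsewhere. Sel1l, which works in the disposal of misfolded proteins from the endoplasmic reticulum, differed by 0.34. Dnajb9, a chaperone of the same compartment, was the one that escaped, at -0.11, and the abundant chaperone gene Hsp90aa1 lay between, at 0.18.

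Chromatin and gene silencing genes gave 9 following and 1 escaping of 15. Dicer1, which cuts microRNA precursors, was 10.12 in D6, 9.27 in D16, 9.20 in D20 and 9.68 in D32, against 7.96 to 9.84, so D6 alone lay above all others. Dnmt3a, a DNA methyltransferase, differed by 0.48 and the histidine methyltransferase gene Setd3 by 0.44. Hdac9 escaped at -0.20, with 5.23 in D16 and 5.26 in D20 but 7.66 in D6 and 8.48 in D32. The 4 tumours were thus split in pairs for this histone deacetylase gene, which also varied widely in the others, from 5.21 to 9.48. The lists share some genes, so their counts are not independent.

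Of 19 signalling genes 9 followed and 4 escaped, with a median of 0.24, against 53.5% following and 12.4% escaping over all chromosome 12 genes. Akt1, a kinase of growth and survival signalling, was 10.87 in D32 and 10.94 to 11.06 in D6, D16 and D20, and all 4 lay above the highest other value of 10.81. Hif1a, the oxygen-regulated transcription factor, differed by 0.21. Nfkbia, which encodes the inhibitor that holds NF-kB in the cytoplasm and is itself induced by NF-kB, was 12.07, 11.34, 11.48 and 11.46 against a median of 11.56. D6 was above that median and the other three below it, and the difference of -0.05 made Nfkbia the most abundant escaping gene. Id2, Prkch and Map3k9 escaped as well, at -0.23, -0.15 and -0.11. Of 11 genes for AP-1 and other transcription factors 2 followed, Batf (0.64) and Zbtb25 (0.51), and 2 escaped, Fos (-0.04) and the T lineage factor Bcl11b (-0.38).

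**Figure D4:**
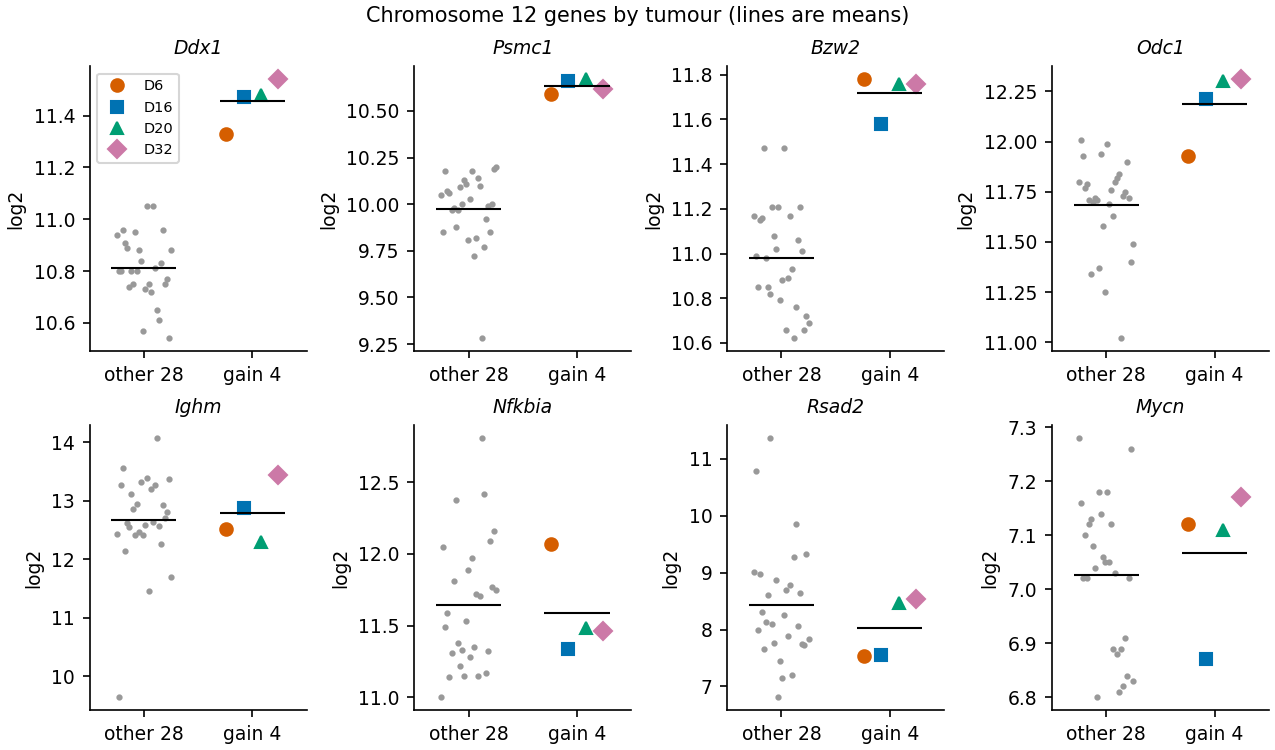
Log2 expression of 8 chromosome 12 genes in the 4 tumours (coloured symbols) and in the other 28 (grey dots), with lines at the group means. Ddx1, Psmc1 and Bzw2 show no overlap between the groups, Odc1 overlaps only in D6, and Ighm, Nfkbia, Rsad2 and Mycn lie within the range of the others.

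By the rule, immunoglobulin heavy chain genes did not follow, although the last of the 10 runs was raised. D6, D16, D20 and D32 stood at 0.32, 0.24, 0.31 and 0.29 in it. In the last of the shorter runs, which holds these genes, they stood at 0.28, 0.13, 0.23 and 0.22. The other tumours reached 0.45 there. Of the 4 heavy chain genes measured, 0 followed and 3 escaped. Ighm, the constant region of the IgM heavy chain, was 12.52 in D6, 12.87 in D16, 12.30 in D20 and 13.44 in D32, against 9.64 to 14.07 with a median of 12.66. Both groups covered the same levels, and the difference was 0.12. Igha, of the IgA class, was 10.88 in D6 and 6.35 to 7.04 in the other three, with a difference of -0.56. Ighg3 and the variable segment gene Ighv14-2 had differences of -0.35 and -0.41. The SDs over the others were 0.81 for Ighm, 2.3 for Igha, 0.67 for Ighg3 and 1.21 for Ighv14-2. These are wide beside 0.33, the median difference of chromosome 12 genes. With 4 tumours the differences are imprecise and do not show that a gain was absent.

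Interferon-induced genes of chromosome 12 formed another group that did not follow, with 0 following and 4 escaping of 6. Rsad2, which encodes the antiviral protein viperin, was 7.53 in D6, 7.56 in D16, 8.46 in D20 and 8.54 in D32, against 6.81 to 11.37 with a median of 8.20. D6 and D16 were below that median and D20 and D32 above it, and the difference was -0.41. Its neighbour Cmpk2, a mitochondrial nucleotide kinase, was 6.81, 4.61, 6.80 and 7.82 with a difference of -0.49, and D16 was below the lowest other value of 5.60. Ifi27l2a and Ifi27l2b escaped at -0.44 and -0.06, and Ifi27 and Serpina3n lay near 0, at 0.03 and 0.02. Over the interferon genes of other chromosomes and Rsad2 the median difference was also below 0, at -0.35, with 0 of 12 genes outside chromosome 12 past the test.

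The other escaping genes with the most negative differences were Smoc1 (-0.71), Colec11 (-0.62), Pld4 (-0.54), Gm4274 (-0.45) and Gm9222 (-0.39). Smoc1 encodes a secreted matrix protein, Colec11 a lectin of innate immunity and Pld4 a nuclease of the endosome. Levels of such genes can also come from non-tumour cells in the sample, and in bulk tissue fewer cells of a type and less RNA per cell cannot be told apart. The median correlation with the mean T cell, myeloid and stroma score over the 28 other tumours was 0.23 for escaping genes, -0.06 for genes between and -0.29 for following genes, and 40.0% of escaping genes had r over 0.4 against 6.48% of following genes. Without D2, D24 and D30 the medians were 0.17 and -0.19 for escaping and following genes. The part of other cells in the escape was not tested. Not all escaping genes were variable: 2410004P03Rik, Sptb, Mboat2 and Gpx2 had SDs of 0.11 to 0.15 over the others and differences of -0.03 to 0.00, at low levels of 6.18 to 6.46.

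Each of the 4 tumours was also over 0.15 on at least 1 other chromosome, as were 13 of the 28 others. D6 stood at 0.30 on chromosome 18, D16 at 0.23 on chromosome 15, D20 at 0.28 on chromosome 10 and 0.23 on chromosome 15, and D32 at 0.25 on chromosome 3. No second chromosome was shared by all 4. The largest differences between the groups were 0.10 on chromosome 18 (exact two-sided permutation test over 35960 regroupings, p = 0.0455, Benjamini-Hochberg adjusted p = 0.531 over 19 chromosomes) and 0.10 on chromosome 15 (p = 0.0746 by the same exact test, adjusted p = 0.531). None of the 19 chromosomes passed at an adjusted p of 0.05, and 1 had an unadjusted p under 0.05. The smallest p this design allows is 2.78e-05. The losses seen in 3 of the 28 others, on chromosomes 4, 13 and 19, were seen in 0 of the 4.

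Outside chromosome 12 few genes differed, and no call held under every check. With limma and Benjamini-Hochberg adjustment over all 11228 genes, 9 of 10780 genes passed at an adjusted p of 0.05 (0.0835%), 2 higher (0.0186%) and 7 lower (0.0649%). This adjustment includes the chromosome 12 genes, which had to differ and so ease the threshold for the rest. Adjusted over the genes outside chromosome 12 alone, 0 passed in limma, with a lowest adjusted p of 0.216 and 726 genes at an unadjusted p under 0.05. The 9 genes are given below as those that passed the first of these tests. Leaving out D16 left 1 call and leaving out D20 left 0 (378 genes at an unadjusted p under 0.05), and none of the 9 was among them, while 3 of the 9 passed without D6 and 5 of the 9, among 16 calls, without D32. The differences kept their sign: H2-Aa was -0.90 without D16 and -1.31 without D20, H2-Eb1 -1.25 and -1.64, Dennd1c -1.09 and -0.97, Igll1 2.90 and 2.94, and Uaca 1.28 and 1.01. Of the other tumours, leaving out D4 gave 14 calls, D30 gave 14 and D31 gave 15. Array weights gave 1208 calls in limma. The weights of D16 and D20 were 4.39 and 2.26, both above the highest of the others, 2.18 (median 1.04).

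The leading gene among those higher was Igll1, whose protein pairs with that of Vpreb1 into the surrogate light chain, which stands in for a light chain in the pre-B cell receptor. Class II genes led among those lower in number of members. The 250 bases before the start of Igll1, Vpreb1, H2-Aa and H2-Eb1 are shown for these groups (RefSeq, build GRCm38.p6, 5′ to 3′):
Igll1, chr16:16863986-16864235, minus strand: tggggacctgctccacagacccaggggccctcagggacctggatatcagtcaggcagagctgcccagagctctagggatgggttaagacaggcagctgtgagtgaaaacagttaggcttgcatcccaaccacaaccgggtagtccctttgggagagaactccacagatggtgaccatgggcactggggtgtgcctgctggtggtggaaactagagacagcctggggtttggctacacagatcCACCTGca
Vpreb1, chr16:16869256-16869505, minus strand: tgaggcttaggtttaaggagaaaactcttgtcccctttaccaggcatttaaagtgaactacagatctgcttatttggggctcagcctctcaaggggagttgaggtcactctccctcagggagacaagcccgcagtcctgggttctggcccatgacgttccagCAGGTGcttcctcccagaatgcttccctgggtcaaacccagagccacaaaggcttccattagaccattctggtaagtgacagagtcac
H2-Aa, chr17:34287824-34288073, minus strand: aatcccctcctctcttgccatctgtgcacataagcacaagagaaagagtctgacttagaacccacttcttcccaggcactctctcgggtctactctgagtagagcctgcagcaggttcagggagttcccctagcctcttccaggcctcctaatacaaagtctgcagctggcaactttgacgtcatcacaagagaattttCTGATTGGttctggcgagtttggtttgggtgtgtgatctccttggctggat
H2-Eb1, chr17:34305617-34305866, plus strand: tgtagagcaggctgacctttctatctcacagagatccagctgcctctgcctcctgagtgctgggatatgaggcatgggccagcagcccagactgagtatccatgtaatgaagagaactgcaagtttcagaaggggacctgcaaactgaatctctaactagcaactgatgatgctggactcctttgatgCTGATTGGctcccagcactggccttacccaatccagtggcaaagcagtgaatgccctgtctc

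In the first pair capitals mark CAGGTG, an E-box that E proteins of B cell precursors bind, searched on both strands, and in Igll1 it is read from the opposite strand as CACCTG. Each of the pair held 1 match, as did 17.1% of all 27025 promoters and 4 of the 16 with a sequence among the precursor B cell genes. In the second pair capitals mark CTGATTGG, the core of the Y box of class II promoters, searched on both strands. Each held 1 match, as did 4.07% of all promoters and 3 of 9 class II genes with a sequence (H2-Oa is the third). A match is a description of the sequence and not evidence of binding.

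Igll1 was 10.98 in D6, 10.83 in D16, 10.69 in D20 and 5.69 in D32, against 5.45 to 11.25 with a median of 5.82 in the others. D6, D16 and D20 were high and D32 was at the level of most other tumours, so the group mean of 9.55 ± 2.57 (SD, n = 4), against 6.22 ± 1.24 (SD, n = 28), describes no single tumour. The difference was 3.32 (SE 0.74, limma adjusted p = 0.0188, and 0.216 over genes outside chromosome 12). Vpreb1, encoded close by on chromosome 16, had the same pattern, with 11.17, 11.36, 11.41 and 5.72 against 4.90 to 12.43 and a median of 5.72. Its difference of 3.54 did not pass (limma adjusted p = 0.108), and it passed without D32 (difference 4.94, limma adjusted p = 0.0128). Uaca, the other higher gene, was 7.62, 8.06, 8.87 and 6.35 in D6, D16, D20 and D32, against 5.69 to 8.95. Its difference was 1.39 (SE 0.34, limma adjusted p = 0.041, and 0.315 over genes outside chromosome 12). D32 was again near the median of the others, 6.20. High levels of these genes were not particular to the 4. D31, with a chromosome 12 level of 0.00, had the highest Igll1, Vpreb1 and Uaca of all 32 tumours (11.25, 12.43 and 8.95). D25, at -0.06, had Igll1 at 8.77 and Vpreb1 at 11.64.

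Other genes of precursor B cells went in both directions. Of 16 measured, 1 passed as higher, Igll1, and 0 as lower, 11 differences were above 0 and the median was 0.35, against 0.00 over all genes outside chromosome 12. Erg, a transcription factor of progenitors, was 7.85 in D6, 9.16 in D16, 9.32 in D20 and 6.39 in D32, with a difference of 1.51 (limma adjusted p = 0.151). Il7r, the receptor for the growth factor interleukin 7, and Lef1 were high in D6, D16 and D20 (9.98 to 10.60 and 9.88 to 10.25) and low in D32 (6.51 and 6.98). Rag1, the recombinase of antigen receptor genes, was 10.25 in D6 but 3.91, 4.88 and 3.62 in D16, D20 and D32, with a difference of -2.05 (limma adjusted p = 0.805). Enpep, a peptidase of the pre-B cell surface, was high in D16 and D20 alone, at 10.44 and 9.52. Ly6d had the most negative difference of the list, -2.37 (limma adjusted p = 0.147), and was at 6.35 to 7.04 in all 4 against a median of 8.76.

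Class II antigen presentation genes, which mature B cells use to show peptides to T cells, had lower means in the 4. H2-Aa was 11.75 in D6, 9.75 in D16, 10.98 in D20 and 11.13 in D32, against 10.99 to 13.37 with a median of 12.08. All 4 were below that median, and D16 and D20 were below every other tumour. The difference was -1.28 (SE 0.31, limma adjusted p = 0.0359, and 0.315 over genes outside chromosome 12). H2-Eb1 was 10.66, 8.56, 9.74 and 9.59 in the same order, against 9.85 to 12.97, so D6 alone overlapped the others. Its difference was -1.61 (SE 0.39, limma adjusted p = 0.0411, and 0.315 over genes outside chromosome 12). A list of class II genes had 12 of 12 differences below 0 with a median of -1.29, and 2 passed. Of all genes outside chromosome 12, 49.5% had a difference of 0 or less. The list was chosen after these values were seen, so its count is a description only. Cd74, the invariant chain, differed by -1.54, Ciita, the master activator of the class, by -1.36, and H2-DMa and H2-DMb2, which load peptides, by -1.54 and -1.85, with limma adjusted p from 0.117 to 0.145. The regulator Rfx5 differed by -0.47 (limma adjusted p = 0.644), and Rfxap and Rfxank were near 0, at -0.06 and -0.10 (limma adjusted p = 0.986 and 0.875).

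The mature B cell list, which holds some of the same class II genes, had 2 passing as lower of 13, the pair above, and a median of -1.02. Ms4a1, the gene of the surface protein CD20, was 9.57 in D6, 9.96 in D16, 7.40 in D20 and 9.81 in D32 against a median of 10.97, with a difference of -1.58 (limma adjusted p = 0.685). Genes shared by B cell stages had a median of -0.11 with 0 of 11 past the test. Blk, a kinase of the B cell receptor, had the largest difference among them, -1.83 (limma adjusted p = 0.222), with 8.30, 7.08, 6.89 and 7.20 against a median of 9.56.

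Of the other genes that passed as lower, Sp100, a component of nuclear bodies, was 7.06 in D6, 6.63 in D16, 6.94 in D20 and 7.93 in D32, against 7.30 to 9.19, with a difference of -1.04 (SE 0.23, limma adjusted p = 0.0183). D32 alone overlapped the others. Tmem71, a membrane protein gene on chromosome 15, was 8.15, 7.37, 7.38 and 8.24, against 7.90 to 9.51, with a difference of -0.91 (SE 0.19, limma adjusted p = 0.00855). It was lowest in D16 and D20, whose chromosome 15 levels were raised. Tcaim, a mitochondrial protein gene of lymphocytes, was 6.55, 6.60, 6.32 and 6.63 with 6.63 as the lowest other value, and its difference was -0.46 (limma adjusted p = 0.0183). Dennd1c and Ppip5k1 had differences of -1.05 and -0.60 (limma adjusted p = 0.0322 and 0.0373). Over genes outside chromosome 12 the limma adjusted p was 0.216 for Sp100, Tmem71 and Tcaim and 0.315 for Dennd1c and Ppip5k1, so none of these passed there. In each of the 4 tumours 3 genes outside chromosome 12 were below all 28 others (0.0278%): Tcaim, Gripap1 and Tmem230, the last of which is named because its values were seen.

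**Figure D5:**
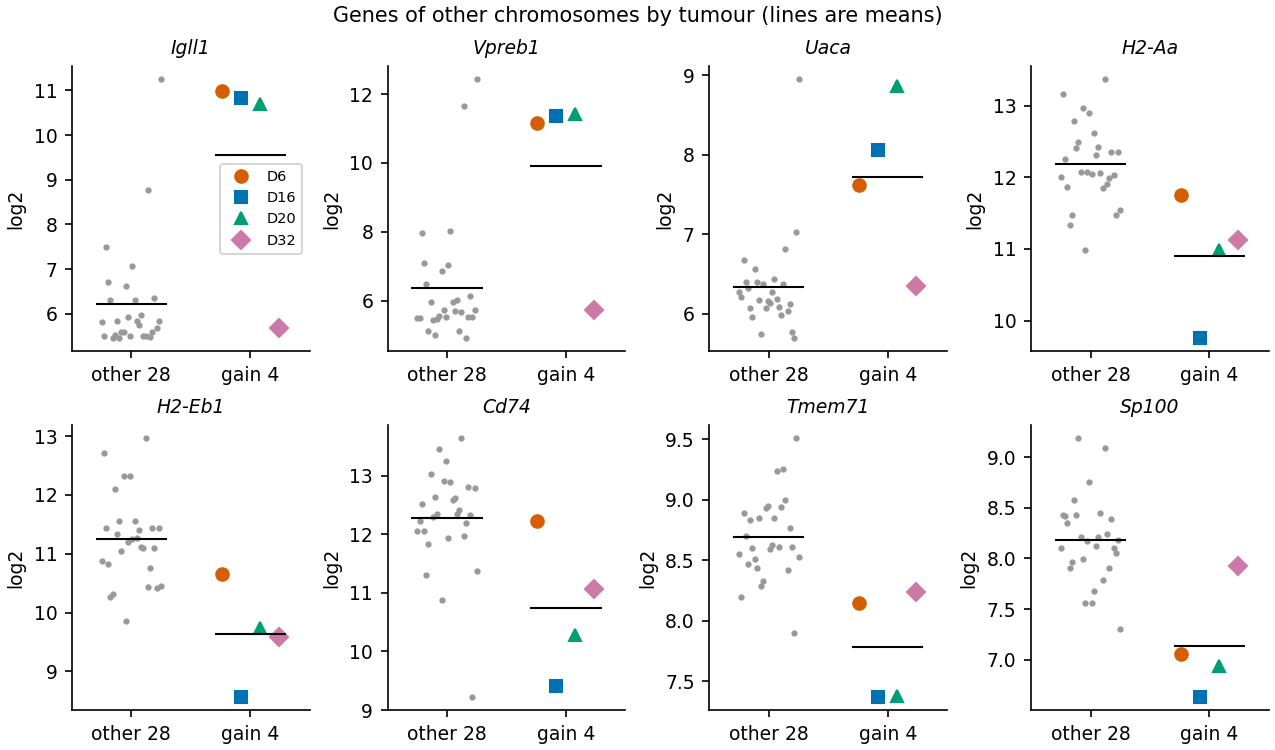
Log2 expression of 8 genes of other chromosomes in the 4 tumours (coloured symbols) and in the other 28 (grey dots), with lines at the group means. Igll1 and Vpreb1 are high in D6, D16 and D20 and low in D32, and the class II genes H2-Aa, H2-Eb1 and Cd74 are lowest in D16 among the 4.

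The next genes by moderated t did not pass. Higher were Me2, Tnn, Shb, Vpreb1, Ada and Usp14, with differences from 0.20 to 3.54 and limma adjusted p from 0.0608 to 0.117. Me2, a malic enzyme, and Usp14, a deubiquitinase of the proteasome, lie on chromosome 18, where D6 stood at 0.30 and D16 and D20 at 0.05, and D6 had the highest value of the 4 for both (10.52 and 11.18). Lower were Nbeal1, Tstd2, Samd9l, Gripap1, Usp20 and Elmod2, with differences from -1.56 to -0.30 and limma adjusted p from 0.0608 to 0.0871.

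The Myc network outside chromosome 12 gave 0 genes past the test. Myc, on chromosome 15, was 10.84 in D6, 11.27 in D16, 11.69 in D20 and 12.20 in D32, against 9.81 to 12.30 with a median of 11.34. The difference of 0.19 did not pass (limma adjusted p = 0.95). Mxd4, a repressor that competes with Myc for Max, had the most negative difference, -0.96 (limma adjusted p = 0.167). Known Myc targets had a median of 0.13 and proliferation genes 0.13, with 0 past the test in each list. Of their differences 18 of 20 and 14 of 19 were above 0. Over all genes outside chromosome 12 the median was 0.00, and 49.5% had a difference of 0 or less. These lists include the following chromosome 12 genes Odc1 and Rrm2. Cdkn2a, the tumour suppressor locus often lost in these lymphomas, was 7.66 in D6 and 5.76 to 5.93 in the other three, with a difference of 0.10 (limma adjusted p = 0.918).

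Markers of other cell types were measured in the same samples. T cell genes had a median difference of -0.09, myeloid genes 0.03, endothelial genes 0.14, stroma genes 0.45 and salivary gland genes 1.96, with 0 past the test in each list. The salivary difference rested on D16 and D20. S100a9, a gene of neutrophils and the member of the myeloid list with the largest difference, was 11.15 in D16 and 11.55 in D20, against 9.45 in D6, 7.77 in D32 and a median of 8.58 in the others, with a difference of 1.92 that did not pass (limma adjusted p = 0.66). Without the 11 tumours with salivary transcripts, which removes D16 and D20, 2 genes passed in limma and none of the 9 was among them. With salivary transcripts as a covariate and all 32 tumours kept, 10 genes passed and 7 of the 9 were among them, all but H2-Eb1 and Uaca. H2-Aa then had a difference of -1.28 (limma adjusted p = 0.0448). Xist was high in 1 of the 4 and 17 of the 28, and with sex as a covariate 5 of the 9 genes passed, Igll1, Uaca, Sp100, Tcaim and Tmem71.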

How the data were processed

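Each of 32 lymphomas was measured on 1 Affymetrix Mouse430_2 array. The authors deposited log2 values for each probe set. The submitters' processing notes name RMA and affy as the tools, with no versions. RMA evens out the distributions of the arrays, so a shift shared by most genes would not show.

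Of 45101 probe sets, 34958 had 1 symbol in the platform annotation, and chromosomes came from RefSeq (GRCm38.p6). Probe sets with a mean of at least 5.78, the median of all means, were kept, with the highest for each gene, which left 11228 genes. Of these 404 lie on chromosome 12 and 44 have no chromosome there. Genes were tested in R 4.3.3 with the limma package, version 3.58.1 (eBayes, 4 against 28, Benjamini-Hochberg over all genes), and chromosome levels with an exact permutation test in Python. The grouping of tumours comes from measured values, not from the labels, and groups, gene lists and named genes were chosen with earlier results of these data known. The steps were tested on simulated data. The alternatives covered the probe set rule, the filter, the scaling, covariates, array weights and left-out tumours. The last 3 were added after the data were seen, namely adjustment over genes outside chromosome 12, chromosome levels as covariates and the count without chromosomes 3, 10, 15 and 18.

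Named on chromosome 12 are the 12 following genes with the largest difference, the 10 escaping genes with the most negative one and list members. Elsewhere they are the genes that passed, the next 6 in each direction, the extremes of each list, and Myc, Ighm, Cdkn2a, Xist and Eif2s3y. Chosen after their values were seen were Eapp, Ptrhd1, Dlst, Gpx2, 2410004P03Rik, Sptb, Mboat2, Pqlc3, Zfyve21, Otub2, Erg, Il7r, Lef1, Enpep, Ms4a1, Tmem230 and the list of class II genes.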

Additional observations from a re-analysis of the deposited data

Results flagged for a closer look

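Among the 4 tumours, a value was marked where its gap to the nearest of the others was a larger share of the range of the 4 than Dixon's 95% limit for 4 samples allows. Of 127 genes named or considered for naming and 20 chromosomes, 12 genes and 2 chromosomes were marked. For items picked without regard to their values, chance marks about 1 in 20. Some of these genes, Il7r, Lef1 and Ms4a1 among them, were chosen after their values were seen, so that rate is no yardstick here.

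D32 stood apart for genes of precursor B cells. Igll1 was 5.69 in D32 and at least 10.69 in D6, D16 and D20. Vpreb1 was 5.72 against at least 11.17, Il7r 6.51 against at least 9.98, and Lef1 6.98 against at least 9.88. D32 was also marked on chromosome 3, with a level of 0.25 against -0.07 to -0.04.

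D6 stood apart for Igha, at 10.88 against at most 7.04, for H2-DMb2, at 9.67 against at most 7.65, for Cdkn2a, at 7.66 against at most 5.93, and for Gphn, at 8.35 against at least 9.48. D20 stood apart for the sex-linked pair, with Xist at 12.93 against at most 6.93 and Eif2s3y at 3.65 against at least 9.15. It was also marked for Ms4a1, at 7.40 against at least 9.57, and on chromosome 10, with a level of 0.28 against -0.03 to 0.02. D16 was marked for Bzw2, at 11.58 against at least 11.76.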

How the results depend on the processing

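The chromosome 12 gain kept its direction under each alternative run for it. With no filter on dim probe sets the levels were 0.12 in D6, 0.15 in D16, 0.16 in D20 and 0.21 in D32, so D6 fell below the threshold of 0.15, while the others reached at most 0.04. With that setting the median difference was 0.15 and 118 of 622 genes escaped. With a filter at the 75th percentile D20 stood at 0.41 and D32 at 0.43, the median difference was 0.40 and 14 of 256 genes escaped. Both filters change which genes are counted, and dim probe sets had small differences. With equal medians outside chromosome 12, D16 stood at 0.32. The share of genes that followed ran from 36.8% (229 of 622) with no filter to 70.3% (180 of 256) with the filter at the 75th percentile, and it was 66.3% (268 of 404) without D6. Among other chromosomes 0 of 19 passed under each alternative run. The small difference of -0.02 on chromosome 3 turned to 0.01 with no filter and to 0.00 with equal medians, and it ranged from -0.10 to 0.01 as each of the 4 tumours was left out. The difference on chromosome 10 ranged from -0.01, without D20, to 0.09. Without the tumours with salivary transcripts chromosomes 3, 10 and 15 stood at 0.06, -0.01 and -0.05.

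The 9 calls outside chromosome 12 were the least stable result. Leaving out 1 of the 32 tumours gave 0 to 16 calls. The count was 2 without the tumours with salivary transcripts and 10 with salivary transcripts as a covariate. It was 15 with the score of other cells as a covariate and 1208 with array weights. With the levels of chromosomes 3, 10, 15 and 18 as covariates the count was 3, and 0 of the 9 calls were among them. Adjusted over the genes outside chromosome 12, it was 0. The cause of these changes was not tested, other than that the last setting takes away the chromosome 12 genes, which had to differ. No paired analysis was possible because tumours carry numbers of their own and no number is shared between the groups. With 4 tumours in 1 group the number of arrays limits the precision. The dim probe sets of chromosome 12 had a median difference of 0.04, and whether their genes were raised was not tested.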

Other observations

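Some gene groups of these lymphomas that the comparison above did not describe are set beside the median of all genes outside chromosome 12, which was 0.00. The p53 targets had a median difference of -0.04 over 14 genes, the Bcl2 family 0.04 over 13, and the ribosomal protein genes -0.02 over 9. The NF-kB list had a median of -0.17, with 4 of 12 differences above 0. Of these lists 0 genes passed in limma. Germinal centre and plasma cell genes had medians of -0.07 and -0.03. Nfkbia, Rps29 and Sdc1, of the NF-kB, ribosomal protein and plasma cell lists, lie on chromosome 12 and count in these medians.

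The rule for following, applied to other chromosomes, picked 18.5% of 265 genes on chromosome 18, where D6 was raised. Apart from chromosomes 12 and 15, the share on the remaining chromosomes lay between 3.35% on chromosome 17 and 8.08% on chromosome 14.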
